A study of Mus musculus with 2 samples.

Results

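F3, Gdf10, Fmo2, Clec11a, Mgp, Vtn, Vit and Ifitm1 are genes by which a stromal population of mouse subcutaneous fat, the F3-type cells, was recognised in these data. All 8 were found by symbol among the 27998 genes of the count matrix. They had been chosen because earlier results of the same data showed them high in that population. Their level in F3-type cells is therefore given as a description, and no test was made on it. The questions were which of the 8 are found together in single cells, which are concentrated in the F3-type cells, and which shade into the committed preadipocytes.

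The cells were adipocyte precursor cells that had been flow-sorted from whole subcutaneous adipose tissue of 12-day-old wild-type mice. Cross-fostering had given these pups milk whose fat was either high or low in n-6 relative to n-3 fatty acids, and each diet has 1 sample. Single cells were captured in droplets, the 3′ ends of their transcripts were sequenced, and each molecule was counted once by its unique molecular identifier (UMI). The matrix joins both libraries and separates them by a barcode suffix that no label ties to a diet, so the libraries are called 1 and 2, no diet comparison was made and no p-value was computed. Intervals are exact 95% intervals for counting error only. They treat each UMI as independent, and they do not cover the spread between animals.

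Adipocyte precursors of this depot are usually described along a path from interstitial progenitors that express Dpp4 and Pi16 to preadipocytes that have begun to express genes of lipid uptake and of the basement membrane. Beside that path lies a population with tissue factor (CD142), the product of F3, on its surface, and published work differs on whether these cells restrain fat cell formation in their neighbours or form fat cells themselves. Several of its marker genes encode secreted or matrix proteins. F3 starts the extrinsic clotting cascade. Gdf10 (BMP3b) is a secreted ligand of the TGF-beta family, and Clec11a is a secreted C-type lectin, also called osteolectin, that acts as a bone growth factor. Mgp (matrix Gla protein) is a vitamin K dependent inhibitor of calcification, Vtn (vitronectin) binds integrins and the inhibitor PAI-1, and Vit (vitrin) is a matrix protein with von Willebrand factor A domains. Fmo2 is a flavin-containing monooxygenase, and Ifitm1 is a membrane protein of the interferon-induced transmembrane family.

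In GRCm38, with the GENCODE annotation, F3 spans 121723537 to 121735048 on the plus strand of chromosome 3 and Gdf10 spans 33923587 to 33937983 on the plus strand of chromosome 14. Clec11a lies on the minus strand of chromosome 7, from 44302687 to 44306902, and Ifitm1 on the plus strand of the same chromosome, from 140967221 to 140969825. Fmo2 is on the minus strand of chromosome 1 (162874317 to 162898726), Mgp on the minus strand of chromosome 6 (136872435 to 136875823), Vtn on the plus strand of chromosome 11 (78499091 to 78502324) and Vit on the plus strand of chromosome 17 (78508064 to 78627408). All 8 are annotated as protein-coding. Ifitm1 sits among its relatives Ifitm2 and Ifitm3, and its values are uncertain to the extent that such relatives share reads, since the treatment of shared reads is not stated.

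F3 and Gdf10 had the most similar profiles over groups of cells among pairs with F3, while Clec11a was the 1 member that was lower in committed than in Dpp4-type cells. The 250 bases before the RefSeq start (GRCm38.p6) of these 3 genes are therefore shown, from chr3:121723287-121723536 on the plus strand, chr14:33923337-33923586 on the plus strand and chr7:44306960-44307209 on the minus strand. Capitals mark matches on either strand to the AP-1 motif TGANTCA, the CCAAT box CCAAT, the TATA box TATAAA and the GC box GGGCGG.
F3: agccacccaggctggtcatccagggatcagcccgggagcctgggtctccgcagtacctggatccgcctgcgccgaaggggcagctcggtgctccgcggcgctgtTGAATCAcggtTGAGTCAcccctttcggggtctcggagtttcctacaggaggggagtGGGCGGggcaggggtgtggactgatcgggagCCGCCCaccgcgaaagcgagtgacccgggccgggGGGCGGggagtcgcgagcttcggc
Gdf10: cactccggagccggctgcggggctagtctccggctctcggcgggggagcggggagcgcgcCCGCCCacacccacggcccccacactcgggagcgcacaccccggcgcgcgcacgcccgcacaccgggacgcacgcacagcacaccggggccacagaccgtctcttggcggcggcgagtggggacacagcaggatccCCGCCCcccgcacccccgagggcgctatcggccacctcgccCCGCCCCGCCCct
Clec11a: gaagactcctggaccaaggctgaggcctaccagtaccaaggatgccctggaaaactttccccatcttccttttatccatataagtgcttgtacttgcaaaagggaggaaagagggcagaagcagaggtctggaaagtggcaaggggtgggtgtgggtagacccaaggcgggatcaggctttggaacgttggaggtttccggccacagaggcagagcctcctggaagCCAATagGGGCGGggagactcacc
The F3 window held 2 AP-1 matches, 4 bases apart, and 3 GC boxes, and 70% of its bases were G or C. The Gdf10 window held 4 GC boxes, of which the last 2 overlap by 1 base, at 78.8% GC, and the Clec11a window held 1 CCAAT box and 1 GC box at 55.6% GC. Over 32851 RefSeq windows of this length, 6.75% held an AP-1 match, 33.8% a CCAAT box, 12.4% a TATA box and 32.7% a GC box. The median GC content was 52.4%. RefSeq windows were matched for 6 of the 8 members. The matches are a description of these letters and no binding was measured.

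The matrix held 3321 barcodes of library 1 and 3584 of library 2, of which 3307 and 3578 passed the filters, with median depths of 12962 and 12112.5 UMIs. The labels state 3000 sorted cells for each condition. Between the libraries, 17 barcode sequences were shared. Clustering that left out the 8 members and all other listed genes gave 371 F3-type cells, 5.39% of the 6885 kept, of which 181 were in library 1 and 190 in library 2. It also gave 3064 Dpp4-type cells, 1580 committed preadipocyte-like cells, 267 cycling cells, 49 endothelial-like cells and 64 cells of mixed erythroid and macrophage markers. A cluster of 770 cells, cluster 3, was led by Cilp, C1qtnf3, Txnip and Eln, and one of 720 cells, cluster 4, was led by Smpd3, Daglb and Ccl2. Neither took a name. All 8 members were raised in the F3-type class, which is how that class was named. Haemoglobin RNA differed between the libraries, with the 5 erythroid markers summing to 851 counts per 1000000 UMIs (CPM) in library 1 and 17.7 CPM in library 2 within F3-type cells, and to 1275 and 20.3 CPM in all other precursor cells. The 8 mural markers summed to 104 and 118 CPM in F3-type cells against 92.7 and 65.1 CPM. The 8 macrophage markers summed to 30.1 and 12.8 against 25.4 and 17.1 CPM, with Ptprc at 0 in both libraries of the class. The 5 muscle markers summed to 4.37 and 61.1 against 4.48 and 5.78 CPM. Of these, Pax7 and Myf5 were at 0 in both libraries of the class, and Myod1 and Myog in library 1 only. Myog was raised in the class. All 5 epithelial markers were at 0. The part of these RNAs in the members' levels was not tested.

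F3 was the member least concentrated in the cells that bear its name. Levels are in CPM of all UMIs summed over the cells of a group. In F3-type cells it was 102 CPM (88.3 to 116) in library 1 and 71.9 CPM (60.7 to 84.5) in library 2. Cluster 3 had 75.1 and 89.4 CPM, the committed cells 62.2 and 54.1 CPM, cluster 4 54.1 and 53.6 CPM and the Dpp4-type cells 26.1 and 31.3 CPM. In library 1 the F3-type interval lay above that of cluster 3 (67.7 to 83.1), whereas in library 2 cluster 3 was the higher (80.1 to 99.4) and the intervals overlapped. Only 9.01% of all F3 UMIs came from the F3-type class, which made up 5.39% of cells. To set aside depth, cells were also thinned to 7470 UMIs, which left 336 F3-type cells, and 36.6% of these (31.4 to 42.0) had an F3 UMI against 46.9% at full depth. In thinned committed cells the share was 26.9% and in Dpp4-type cells 18.5%. The mixed blood-cell cluster, taken as the background of free RNA, had 11.8% (3.30 to 27.5, 34 cells), an interval that held both. By level the groups were separate: F3 in that cluster was at 11.3 CPM (4.56 to 23.4) over 64 cells at full depth. Pooled over libraries, committed cells had 58.0 CPM (54.5 to 61.6) and Dpp4-type cells 28.8 CPM (27.1 to 30.5), both above that interval. Median depths before thinning were 10846 UMIs in F3-type cells and 8631.5 in the blood-cell cluster.

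Of the secreted factors, Gdf10 had a similar order to F3 outside the class, but its F3-type level stood clear of cluster 3 in both libraries. In F3-type cells it was at 133 CPM in library 1 and 164 CPM in library 2, against 52.8 and 58.4 CPM in committed cells, 58.5 and 58.2 CPM in cluster 3 and 18.9 and 26.1 CPM in Dpp4-type cells. Committed cells and cluster 3 were therefore level with each other, between the F3-type and the Dpp4-type cells. The F3-type class held 16.9% of Gdf10 UMIs.

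Clec11a had another order. Its level was 129 CPM in library 1 and 128 CPM in library 2 in F3-type cells, 8.15 and 9.19 CPM in committed cells, and 17.5 and 17.1 CPM in Dpp4-type cells. Among precursor groups committed cells and cluster 4 (6.94 and 9.58 CPM) were lowest, and the Dpp4-type cells lay between these and the F3-type cells. Of the thinned cells, 50.6% of the F3-type, 5.54% of the committed and 11.3% of the Dpp4-type cells had a Clec11a UMI. In cluster 3 the libraries stood apart, at 16.6 and 29.4 CPM.

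Mgp had the highest share of its UMIs in F3-type cells, 48.2%. It was at 416 CPM in library 1 and 458 CPM in library 2 there, against 25.6 and 24.4 CPM in committed cells and 12.1 and 12.96 CPM in Dpp4-type cells. Among precursor groups cluster 3 came next after the F3-type class, with 62.3 and 96.2 CPM. Mgp RNA was unevenly spread over the class: 57.7% of thinned F3-type cells had a UMI, those cells had 5.86 UMIs on average, and the 10% of F3-type cells with most Mgp held 52.3% of its UMIs at full depth. Mgp was also found at 90.8 CPM in the endothelial-like cells, where 1 of 49 cells held 56.3% of the UMIs.

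Vtn and Vit, the other matrix proteins, were low in every other precursor group. Vtn was at 122 and 130 CPM in F3-type cells of libraries 1 and 2, 18.8 and 17.7 CPM in committed cells, 12.8 and 19.4 CPM in cluster 3 and 5.83 and 6.19 CPM in Dpp4-type cells. Vit was at 71.4 and 83.7 CPM in F3-type cells and at 6.77 and 7.35 CPM in committed cells. Its next highest group was cluster 3 at 9.49 and 11.8 CPM, whose intervals overlapped those of committed cells and cluster 4. Vtn was the most unevenly spread of the matrix genes in the class, with UMIs in 30.4% of thinned F3-type cells and 67.1% of its UMIs in the 10% of cells with most. Vit was found in 37.2% of thinned F3-type cells, and the highest 10% held 42.6% of its UMIs. Outside the precursors, Vtn reached 52.2 CPM in the endothelial-like cluster, in which 6 of 8 mural cell markers were raised as well.

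Fmo2, with 665 UMIs in all, rests on the fewest counts of the 8. In F3-type cells it was at 21.9 CPM (15.95 to 29.3) in library 1 and 34.0 CPM (26.4 to 43.0) in library 2. The level in cluster 3 was 15.02 and 14.7 CPM, in committed cells 10.8 and 10.9 CPM and in Dpp4-type cells 4.23 and 3.49 CPM. In library 1 the F3-type and cluster 3 intervals overlapped. Ifitm1 was at 167 and 149 CPM in F3-type cells, 11.1 and 16.2 CPM in committed cells, 8.30 and 13.6 CPM in cluster 3 and 7.33 and 8.54 CPM in Dpp4-type cells. In the mixed blood-cell cluster it was at 71.3 CPM, but 1 cell held 79.5% of these UMIs.

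**Figure D1:**
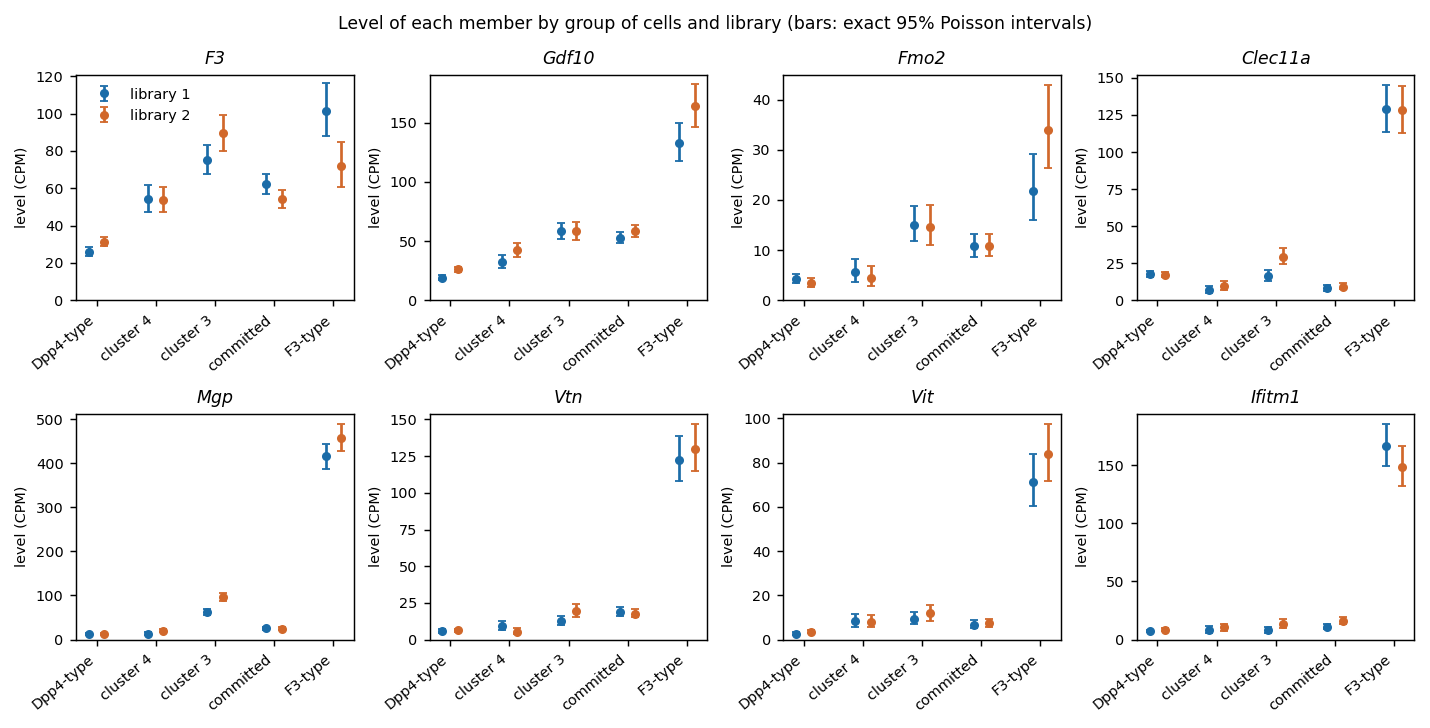
Level of each member (vertical axis, CPM, each panel with its own scale from 0) in 5 groups of precursor cells (horizontal axis) in library 1 (blue) and library 2 (orange); points are summed counts and bars exact 95% Poisson intervals. F3 in F3-type cells (102 and 71.9 CPM) is above cluster 3 in library 1 and below it in library 2 (75.1 and 89.4 CPM), whereas Clec11a, Mgp, Vtn, Vit and Ifitm1 are far above every other group shown in both libraries.

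The lowest shares were set beside those of blood cells, as no profile of empty droplets was used here. Of the 34 thinned cells of the mixed blood-cell cluster, 5.88% had an Fmo2 UMI, 8.82% a Vtn UMI, 2.94% a Vit UMI and 5.88% an Ifitm1 UMI. The shares in thinned Dpp4-type cells were 2.07%, 3.67%, 2.64% and 5.74% for the same genes, at or below those of the blood cells, and cannot be told from background. In thinned committed cells they were 6.36%, 10.9%, 4.03% and 8.95%, and these too lay within the blood-cell intervals, which reach 19.7%, 23.7%, 15.3% and 19.7%. The differences between committed and Dpp4-type cells for Fmo2 and Vtn are therefore differences between low shares that are not separated from the blood-cell share. In Dpp4-type cells Gdf10 (14.3% against 0%, which allows up to 10.3%) was above the blood-cell share. Clec11a (11.3% against 2.94%) lay within the blood-cell interval, which reaches 15.3%. With 34 blood cells this background is known only roughly.

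Between F3-type and committed cells, 7 of the 8 members were at least 2-fold higher in the F3-type cells, F3 being the exception. The rule that chose the members used this contrast, so nothing is read from the count. Of 6828 genes with at least 10 CPM in either sum, 3.27% were that much higher and 1.42% that much lower. The log2 fold was 4.13 for Mgp (3.98 to 4.28), 3.89 for Clec11a, 3.52 for Ifitm1, 3.46 for Vit and 2.79 for Vtn. It was 1.42 for Gdf10 (1.27 to 1.56), 1.36 for Fmo2 (1.01 to 1.702) and 0.58 for F3 (0.40 to 0.76). As a description of these values, 5 genes were at 6.91-fold or more and 3 genes at 2.67-fold or less. Against Dpp4-type cells all 8 were at least 2-fold higher, where 5.81% of 7093 genes were higher and 3.95% lower, from a log2 fold of 1.59 for F3 to 5.12 for Mgp.

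Which members shade into committed cells was read from the contrast of committed with Dpp4-type cells, in which 4.49% of 6887 genes were at least 2-fold higher in committed cells. Of the 7 members at the level minimum there, 4 were: Vtn (log2 fold 1.60, 1.36 to 1.85), Fmo2 (1.495, 1.18 to 1.81), Gdf10 (1.30, 1.17 to 1.43) and F3 (1.01, 0.89 to 1.13). Mgp lay just short at 0.99 and Ifitm1 was at 0.79 (0.54 to 1.03). Vit had 1.19 but was under 10 CPM in both groups. Clec11a was lower in committed cells, with a log2 fold of -0.995 (-1.26 to -0.743), just short of the 2-fold line that 4.39% of genes passed in that direction. F3 and Mgp lie so near the 2-fold line that their side of it changed between libraries: F3 had a log2 fold of 1.25 in library 1 and 0.79 in library 2, and Mgp 1.08 and 0.91. Clec11a was lower in committed cells in both libraries, by -1.10 and -0.90. The committed cells are compared with the Dpp4-type cells in this contrast and with the F3-type cells in the former, so the contrasts share cells and no relation between them is read.

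**Figure D2:**
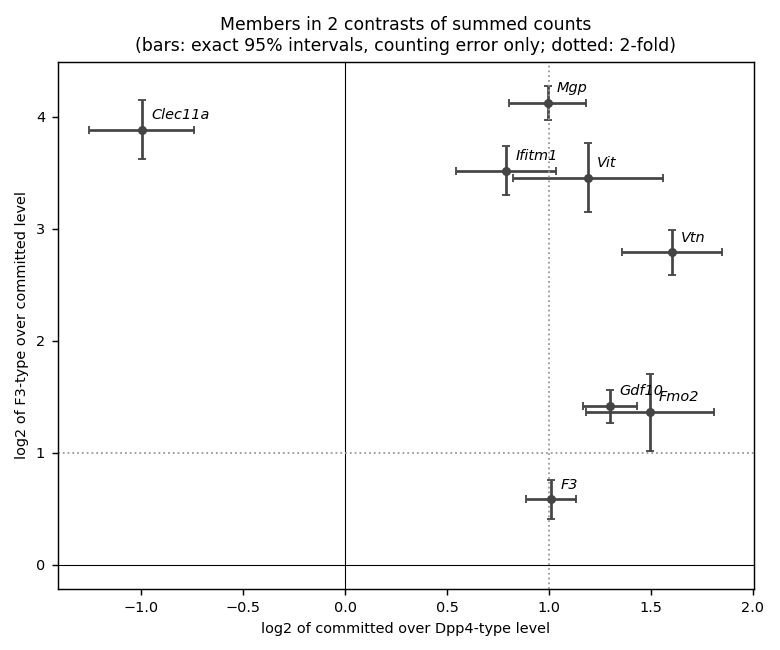
For each member, the log2 fold of committed over Dpp4-type cells (horizontal axis) and of F3-type over committed cells (vertical axis), with exact 95% intervals for counting error as bars and dotted lines at 2-fold. F3 at 1.01 and 0.58 lies lowest, Mgp at 0.99 and 4.13 highest, and Clec11a at -0.995 and 3.89 is alone on the left.

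The same question was asked along a marker ratio. Clusters were used there only to leave out the F3-type class and the cells outside the precursors. Precursor cells outside the F3-type class were ordered by the log2 ratio of summed committed markers to summed Dpp4-type markers and cut into 5 bins of 1280 or 1281 cells. From the most Dpp4-rich to the most committed bin, Vtn went through 6.13, 5.29, 6.53, 12.7 and 22.1 CPM and so was highest at the committed end. Fmo2 went through 3.56, 3.64, 5.42, 9.92 and 12.7 CPM and Ifitm1 through 6.42, 7.52, 9.98, 11.03 and 15.6 CPM. F3 was highest 1 bin before the end, with 27.8, 29.4, 44.7, 70.7 and 55.2 CPM, and so were Gdf10 (60.5 CPM, then 53.7), Mgp (43.1, then 23.8) and Vit (9.92, then 7.35). Clec11a was highest in the first bin and lowest in the last, at 19.9 and 10.47 CPM. Between the last bin and the bin before it, the pooled intervals overlapped for Gdf10, Vit, Fmo2 and Clec11a. In both libraries the end bin was higher than the first for 7 members and lower for Clec11a. The size differed most for Ifitm1, with a log2 fold of 0.58 (0.08 to 1.09) in library 1 and 1.86 (1.38 to 2.35) in library 2. Median depth went down along the bins, from 13611 to 11023 UMIs, and its part was not tested. The F3-type cells themselves had a median log2 marker ratio of 1.14, between the Dpp4-type cells at -2.21 and the committed cells at 2.10.

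**Figure D3:**
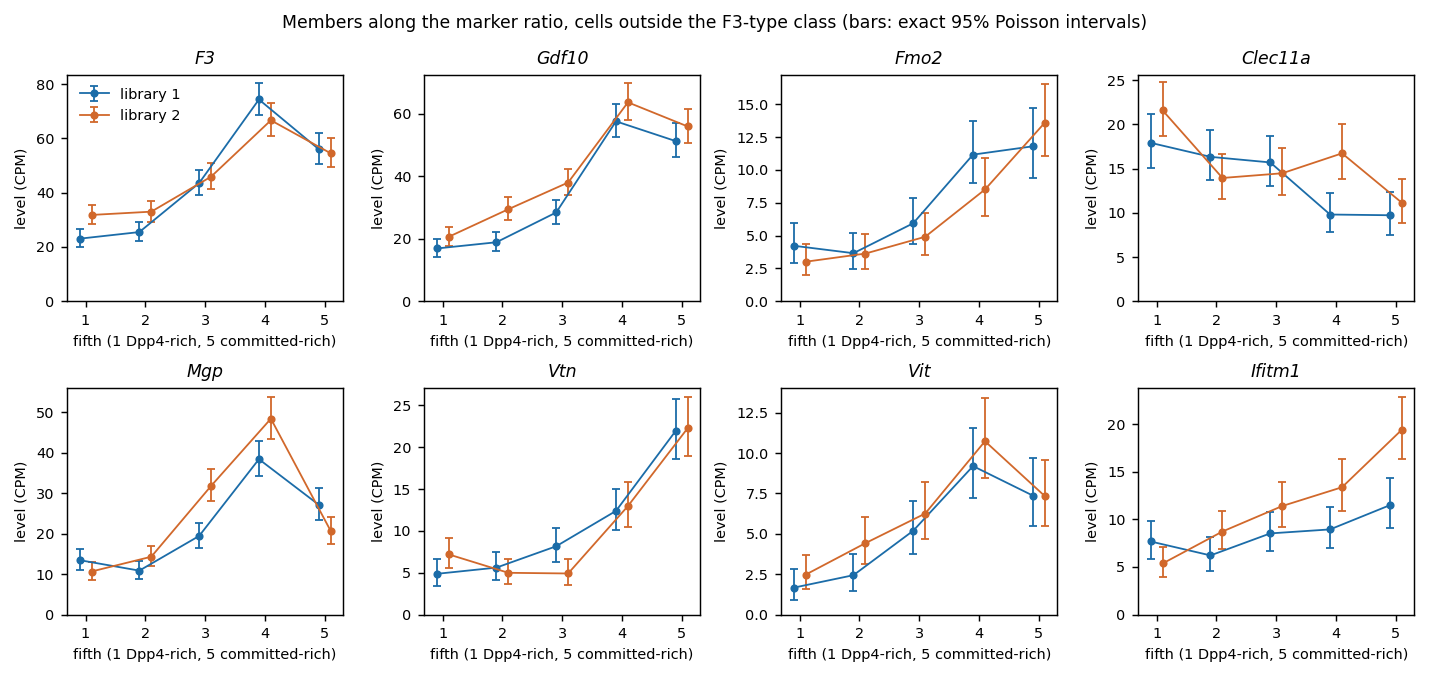
Level of each member (vertical axis, CPM) in 5 equal bins of precursor cells outside the F3-type class (horizontal axis), ordered from Dpp4-rich to committed-rich marker ratios, in library 1 (blue) and library 2 (orange) with exact 95% Poisson intervals. In the pooled values F3, Gdf10, Mgp and Vit are highest 1 bin before the committed end and Vtn and Fmo2 at the end. For Gdf10, Vit and Fmo2 the pooled intervals of those bins overlap. Clec11a is highest at the Dpp4-rich end.

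A finer clustering split cluster 3. At Leiden resolution 1, 158 cells led by Cilp, C1qtnf3, Eln (elastin) and Thbs4 separated as a cluster, and 156 of them came from cluster 3. Mgp was at 143 CPM in library 1 and 340 CPM in library 2 in this set, Clec11a at 41.2 and 83.8 CPM and Fmo2 at 24.9 and 17.8 CPM. Vtn was at 2.58 and 5.08 CPM, Vit at 3 UMIs in library 1 and 0 in library 2, and Ifitm1 at 9.44 and 8.89 CPM. F3 was at 57.5 and 66.03 CPM and Gdf10 at 38.6 and 19.05 CPM. Mgp and Clec11a were thus above their committed levels in both libraries, and Fmo2 in library 1, in a set of cells in which Vtn and Vit were not above their Dpp4-type levels beyond counting error. Mgp and Clec11a were higher in library 2 than in library 1, with intervals that did not overlap. Another fine cluster, of 634 cells with 586 from cluster 3, took the committed name and was led by Txnip, Hspa1a, Fos and Jun, the last 3 being genes of stress and early response. F3 was at 76.96 CPM (68.5 to 86.1) in library 1 and 93.2 CPM (82.8 to 104) in library 2 there, so that its interval in library 1 ended below the F3-type interval and in library 2 overlapped it from above. Gdf10 was at 66.04 and 66.5 CPM, below its F3-type level in both libraries, and Mgp at 37.6 and 31.5 CPM, Vtn at 16.3 and 22.9 CPM and Clec11a at 9.65 and 14.6 CPM were far below theirs. Both sets were seen after the values were known and are a description.

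Co-detection was measured in thinned cells as the number with a UMI of both members divided by the number that the separate shares of the 2 genes give. Over the 28 pairs and 6196 cells the median ratio was 1.82, and all 28 ratios were above 1. The members had been chosen as high in 1 population of these cells, which favours ratios above 1. Nothing is therefore read from that count. Vit with Ifitm1 had the highest ratio, 3.04 (2.45 to 3.73, 91 cells), followed by Fmo2 with Vit at 2.80 and Clec11a with Vit at 2.66. The 7 pairs with F3 lay at the low end, from 1.06 (0.91 to 1.23) with Clec11a to 1.27 (1.03 to 1.56) with Fmo2. For F3 the interval was above 1 only with Gdf10 and with Fmo2. The other pairs with Gdf10 overlapped that range, from 1.16 with Clec11a to 1.699 with Fmo2. Median ratios were 1.86 in library 1, with 28 pairs above 1, and 1.78 in library 2, with 26.

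Ratios were lower in narrower sets of cells. In precursor cells outside the F3-type class the median ratio was 1.21, and in committed cells it was 1.12. It was 1.04 in Dpp4-type cells, with 15 of 28 pairs above 1, and 1.11 within the F3-type class, with 19. A ratio cannot pass 1 divided by the larger share of the pair, which leaves less room in the F3-type class. Mgp, for example, was found in 57.7% of that class and 13.3% of all thinned cells. The part of this bound in the lower ratios was not tested. Pairs with Vtn lay at both ends of the range within the F3-type class. Clec11a with Vtn had a ratio of 1.47 (1.19 to 1.79) and Vtn with Ifitm1 1.44 (1.13 to 1.79), whereas Gdf10 with Vtn had 0.61 (0.41 to 0.85) and F3 with Vtn 0.67 (0.44 to 0.97). In libraries 1 and 2 the ratio for Gdf10 with Vtn was 0.55 and 0.65, and that for Clec11a with Vtn was 1.71 and 1.29, with intervals that left out 1 in library 1 but not in library 2. F3 with Vtn had 0.91 and 0.46, so this pair was below 1 beyond counting error in library 2 only.

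The F3-type cells were therefore also set out by whether Vtn was detected, a split chosen after these ratios were seen. In the 102 thinned F3-type cells with a Vtn UMI, Ifitm1 was at 335 CPM against 94.4 CPM in the 234 without (log2 fold 1.83, 1.54 to 2.12), Clec11a at 223 against 83.0 CPM (1.43, 1.10 to 1.76) and Mgp at 745 against 325 CPM (1.198, 1.03 to 1.37). Gdf10 was at 72.2 against 193 CPM (-1.42, -1.86 to -1.01) and F3 at 44.6 against 109 CPM (-1.29, -1.86 to -0.76). For Fmo2 (0.38, -0.39 to 1.12) and Vit (0.28, -0.18 to 0.72) the intervals included 0. All 5 differences had the same direction in each library, with Gdf10 at -1.98 in library 1 and -1.08 in library 2 and Ifitm1 at 1.99 and 1.68. Inside the class F3 and Gdf10 were thus low in the cells where Vtn, Ifitm1, Clec11a and Mgp were high. Over all cells the pooled ratio of Vtn was 1.13 (0.94 to 1.35) with F3 and 1.21 (1.01 to 1.44) with Gdf10. In libraries 1 and 2 it was 1.33 (1.03 to 1.69) and 0.97 (0.74 to 1.25) with F3. With Gdf10 it was 1.07 (0.78 to 1.42) and 1.31 (1.03 to 1.63). Neither pair was above 1 beyond counting error in both libraries.

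**Figure D4:**
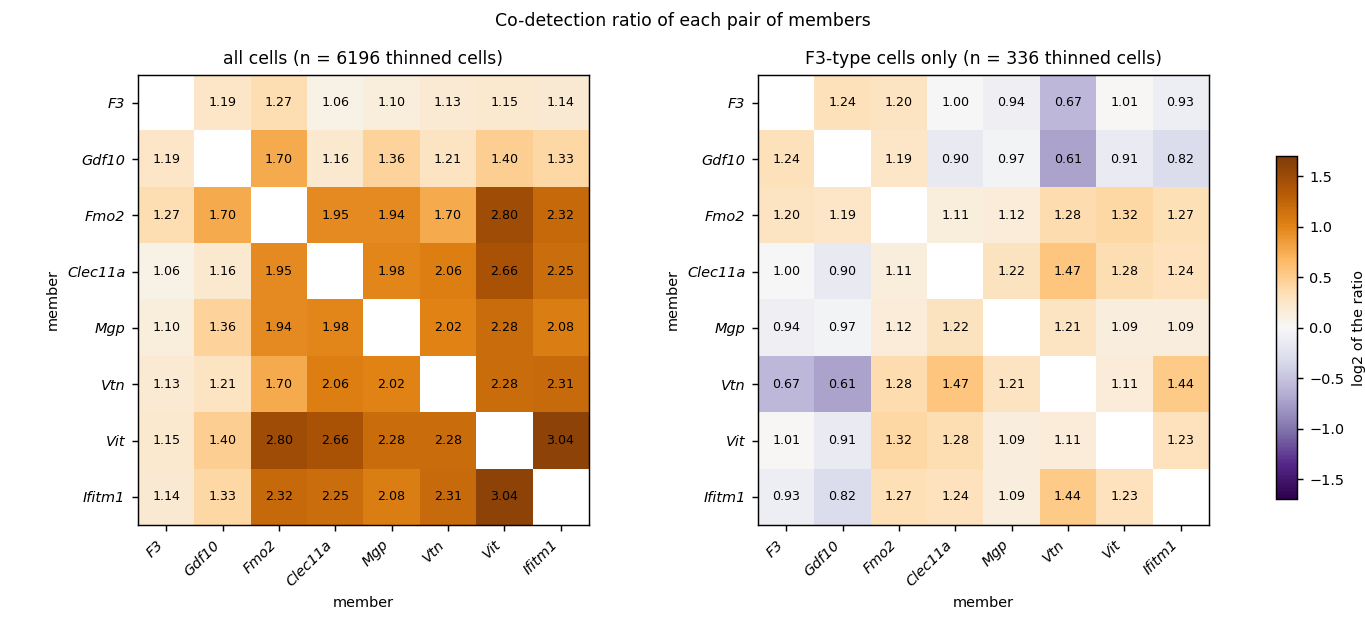
Co-detection ratio of each pair of members in all 6196 thinned cells (left) and in the 336 thinned F3-type cells (right), printed in each square, with colour for the log2 of the ratio (orange above 1, purple below). On the left F3 has ratios of 1.06 to 1.27 and Vit with Ifitm1 reaches 3.04, and on the right Vtn has 0.67 with F3 and 0.61 with Gdf10.

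Cells with several members at once were mostly F3-type cells. The members had been chosen as high in that class and gave it its name, so this is a description only. Of the 6196 thinned cells, 2496 had none of the 8, 2214 had 1 and 200 had 4 or more, or 3.23% (2.80 to 3.70). At full depth the share with 4 or more was 6.42%. Of the 200, 150 were F3-type cells, 20 committed cells, 17 cells of cluster 3, 5 Dpp4-type cells, 5 cycling cells and 3 cells of cluster 4. Within the F3-type class 44.6% (39.2 to 50.1) had 4 or more, 44.9% in library 1 and 44.4% in library 2, and 1 cell had all 8. In committed cells the share was 1.37% (0.84 to 2.10) and in Dpp4-type cells 0.178% (0.058 to 0.415). Even so, 16 of the 336 thinned F3-type cells had none of the 8 and 37 had 1.

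The level of a member was then followed by how many of the other 7 were found in the same cell. From cells with none of the others to cells with 4 or more, Mgp went from 19.3 to 487 CPM, Ifitm1 from 8.44 to 178 CPM, Vtn from 8.38 to 139 CPM and Vit from 5.26 to 74.9 CPM. Fmo2 went from 3.71 to 40.9 CPM and Clec11a from 14.1 to 140 CPM. Gdf10 went from 32.8 to 122 CPM, and F3 had the flattest course, from 39.5 to 76.9 CPM, with 76.7 CPM already at 3 others. With 2 others detected, Mgp was at 56.4 CPM and with 3 at 294 CPM, whereas Gdf10 was at 67.8 and 108 CPM. In library 1 F3 reached 111 CPM (83.0 to 145) with 4 or more others and in library 2 it was at 48.7 CPM (32.3 to 70.4), against 36.8 and 42.2 CPM with none. The F3 level of multi-member cells in library 2 was hence within counting error of that in cells with none of the others. As most cells with 4 or more members were F3-type cells, these levels and the class levels rest on much the same cells. They too are a description of members chosen as high in that class.

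**Figure D5:**
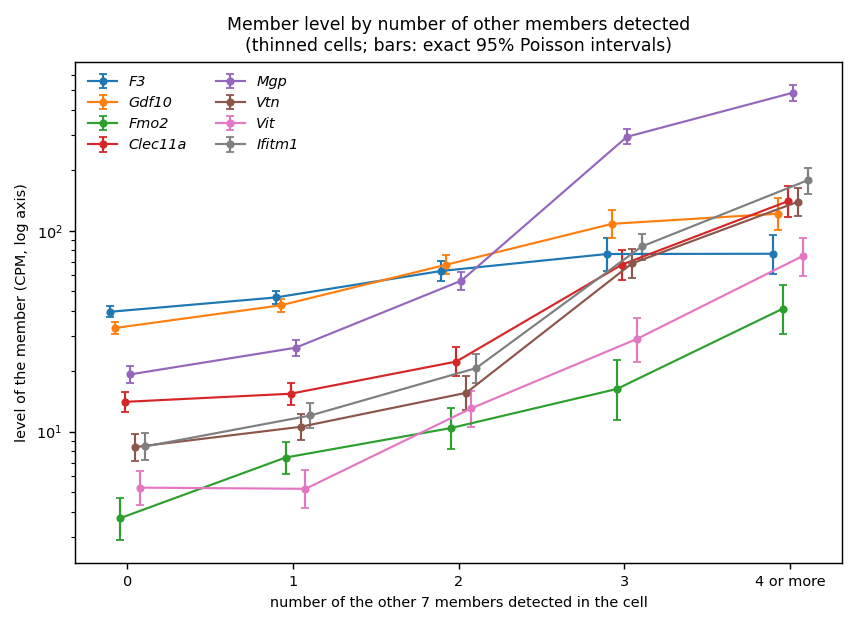
Level of each member (vertical axis, CPM on a log scale) in thinned cells grouped by how many of the other 7 members were detected in the cell (horizontal axis), with exact 95% Poisson intervals. Mgp reaches 487 CPM with 4 or more others, while F3 ends at 76.9 CPM, close to its 76.7 CPM with 3 others.

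Between the libraries, the members in F3-type cells were mostly close. Fmo2 alone was at least 1.5-fold apart, with a log2 fold of library 1 over library 2 of -0.64 (-1.21 to -0.07), where 9.86% of 6985 genes were. F3 was next at 0.50 (0.19 to 0.81), and Gdf10 was at -0.30 (-0.54 to -0.07). The intervals of Clec11a, Vtn, Vit and Ifitm1 included 0. In committed cells, where 1.33% of genes were that far apart, 0 of the 6 members at the minimum were, and in Dpp4-type cells, where 0.545% of genes were, 0 of 4. In cluster 3, where 3.26% of genes were that far apart, 4 members were, all lower in library 1: Clec11a (-0.82), Ifitm1 (-0.71), Mgp (-0.63) and Vtn (-0.59). The libraries come from different diets and different pups, and these cannot be told apart here.

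The partners of the members were read from lists chosen with earlier results known. Among 12 other genes reported for this population, 7 reached the level minimum in the comparison of F3-type with committed cells and 3 were at least 2-fold higher: Meox2, a homeobox factor (52.6 against 9.07 CPM), Epha3, an ephrin receptor (61.9 against 16.5 CPM), and Bace2, a protease (48.9 against 15.1 CPM). The median log2 fold of the list was 0.70, against 0.07 over all genes compared. Abcg1, a sterol transporter used beside CD142 to define this population, had 0 UMIs in the 4088463 of the class, which allows up to 0.734 CPM. With 3 UMIs in committed and 5 in Dpp4-type cells it was hardly detected in any of these groups, so no difference could be seen at this depth.

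Around F3, 8 of 13 genes of tissue factor signalling and fibrinolysis reached the minimum, and 2 were at least 2-fold higher in F3-type than in committed cells, namely the anticoagulant receptors Thbd (225 against 83.3 CPM) and Procr (45.2 against 15.4 CPM). In Dpp4-type cells Thbd was at 132 CPM and Procr at 40.4 CPM. None was that much lower, and the list median was 0.00. F7, which encodes the ligand of tissue factor, had 0 UMIs in F3-type cells and 1 in committed cells. Of the vitamin K dependent proteins and enzymes, 1 of 5 was higher: Gas6, a ligand of the TAM receptors, at 103 against 35.3 CPM, while Vkorc1, the enzyme that recycles vitamin K, was at 662 against 605 CPM. None of the 4 vitronectin receptor subunits at the minimum was 2-fold apart, with Itgb3 at 35.2 against 28.3 CPM and Itgav at 50.9 against 52.6 CPM.

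Among relatives of the members, none at the level minimum was 2-fold higher in F3-type than in committed cells. Ifitm2 and Ifitm3, the neighbours of Ifitm1, were at 1162 and 1369 CPM in F3-type cells and at 1098 and 1403 CPM in committed cells (log2 folds 0.08 and -0.03). Of the interferon response genes, 4 of 6 reached the minimum, none was at least 2-fold higher in F3-type cells, and Ifit1 was lower (7.83 against 19.1 CPM in committed cells). Fmo1, the 1 other flavin monooxygenase of 4 at the minimum, was at 44.8 against 44.4 CPM, and it was at 20.3 CPM in Dpp4-type cells, a log2 fold of 1.13 for committed over Dpp4-type cells beside the 1.495 of Fmo2. No other Gdf gene of 8 reached it. Of 12 TGF-beta family receptors and effectors, 9 did and none was 2-fold apart, with Tgfbr2 at 180 against 117 CPM. Itga11, the integrin reported as a Clec11a receptor, was at 20.8 against 29.9 CPM.

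Likeness was measured over 18 points, each a cluster in 1 library, as Pearson's r of log2(CPM + 5), and the points share libraries and the genes that set the clusters apart. They include 4 points of the endothelial-like and mixed blood-cell clusters, in which single cells held most of the Mgp and Ifitm1 UMIs, so r is also given over the 14 precursor points, a choice made after the values were seen. Among 3548 genes, those most like the mean of the 8 members were Igfbp4 (r = 0.93), C2 (0.92), Tspan11 (0.91), Mmp3 (0.87) and Cd9 (0.85), followed by Sult5a1, Agtr2, Gem and Fosb, from 0.83 to 0.82. Over the 14 points only 3 of the 10 nearest genes, C2, Tspan11 and Igfbp4, were again among the 10 nearest. Igfbp4, which encodes a binding protein of insulin-like growth factors, was at 2162 CPM in F3-type, 651 CPM in committed and 252 CPM in Dpp4-type cells. C2, a complement component, was at 231, 46.0 and 14.6 CPM.

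The nearest genes of single members depended on these points as well. Over 18 points F3 was most like Rab34 (0.96), Cryab (0.96) and Slc29a1 (0.95), Gdf10 most like Cryab (0.94), Rab34 and Cdh11, and Vtn most like Tifa (0.95), Col18a1 and Ltbp4. Mgp was most like Ltbp4 (0.94), Cpe and Vstm4, and Ifitm1 most like S100a4 (0.82), Cxcl16 and Plec. For these 5 members, 0 of the 3 genes were among the 3 nearest over the 14 precursor points. Clec11a was most like Wfdc1 (0.92), Cacnb3 and Phlda3, of which Wfdc1 was again among the 3 nearest. Fmo2 was most like C2 (0.93), Mmp3 and Tspan11, of which C2 and Tspan11 were found again, and Vit most like Igfbp4 (0.92), C2 and Tspan11, of which C2 was. Between members, r for F3 with Gdf10 was 0.92 over 18 points and 0.83 over 14, and for Mgp with Vtn 0.92 and 0.94. For F3 with Ifitm1 it was -0.04 over 18 points and 0.60 over 14, so its sign rests on the endothelial-like and blood-cell points. Over the 14 points the lowest r between members was 0.44, for F3 with Clec11a, and the highest 0.96, for Vit with Ifitm1.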

How the data were processed

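Flow-sorted adipocyte precursor cells of 2 samples were measured by droplet single-cell RNA-seq. The authors deposited whole-number UMI counts per gene and barcode, not normalized, as 1 matrix of both libraries. Per the submitters' processing notes, the tools were Seurat 3.0.1 and a Cell Ranger release without a stated version, the build was mm10, and their roles are not given in the sources used here. The chemistry was, per the labels' protocols, 10x Genomics 3′ V2, and cells are called fresh in one protocol and cryopreserved in another.

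The members and gene lists were chosen with earlier results of these data known. Barcodes with at least 500 genes and at most 10% mitochondrial counts were kept. With scanpy 1.11.5 and leidenalg 0.10.2, 2000 variable genes, 30 principal components, 15 neighbours and resolution 0.5 gave the clusters. The variable genes were chosen after 398 member, listed, mitochondrial, ribosomal and cycling genes of the matrix had been left out. A marker was raised at 20 CPM and 1.5-fold over all other cells, and a name needed 3 raised markers and over 50% of its list; these limits were set after the data were seen. No doublet caller was run. Counts were summed per class, with exact Poisson, conditional binomial and Clopper-Pearson intervals at 95%. Genes needed 10 CPM in 1 of 2 sums. For shares, 6196 cells were thinned to 7470 UMIs, a depth at percentile 10, and 375 and 314 cells below it were left out.

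All members were named, with list genes of at least 20 CPM in F3-type or committed cells, the 10 genes most like the members' mean and the 3 most like each member, among genes with 50 CPM in a cluster, leaving out ribosomal, mitochondrial, Gm and Rik genes. F7, Abcg1 and Ifit1, outside that rule, were named after their values were seen. Some results that fall under the rule are not reported here. Alternatives covered filters, clustering, scaling (edgeR 4.0.16 TMM and DESeq2 1.42.0 size factors, used for scaling only), level minimum, depth, libraries and doublets. Ratios were tested on simulated sums of 27998 genes: for 100 genes changed 2-fold in the F3-type over committed sums the recovered median log2 fold was 1.01, and with 100 changed 4-fold it was 1.99.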

Additional observations from a re-analysis of the deposited data

How the results depend on the processing

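Counts of members at least 2-fold higher in F3-type cells were 6 to 7 against committed and 7 to 8 against Dpp4-type cells under every alternative run. The count in committed over Dpp4-type cells ran from 2 to 5. It was 2, F3 and Gdf10, with a level minimum of 50 CPM, at which only those 2 members reached the minimum in that contrast, and otherwise 3 to 5, with F3 and Mgp changing sides and, in thinned cells, Fmo2 under the minimum. In F3-type cells the count of members 1.5-fold apart between libraries was 0 at 50 CPM, where Fmo2 was below the minimum, and with thinned cells it was 1, F3 in place of Fmo2. The share of cells with 4 or more members was 6.42% at full depth and 0.468% where 2 UMIs counted as detected. That second rule took the median co-detection ratio to 2.90 from 1.82. The median log2 fold of a member between cells with 4 or more and with 0 or 1 others was 3.55, and 2.83 at full depth. Of 312 single-member folds recomputed, 269 stayed within the counting interval, 43 moved and 0 reversed. The 24 folds at the level minimum of 50 CPM had to stay the same, since that minimum does not enter a fold. A reversal could be called only for members at least 2-fold apart under the main settings. An alternative that left out 1 barcode was added after seeing the data and changed none of the counts above. Without the endothelial-like and blood-cell clusters, also added then, r of F3 with Ifitm1 turned from -0.04 to 0.60. No paired analysis was possible because each group has 1 sample and no test was made. Limits are the single library per condition, the missing link of libraries to diets, doublets left in, and counts of 1 UMI at the lowest levels.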
